A study of Mus musculus with 12 samples.

Results

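Messenger RNA of the microtubule motors was measured in Min6, a mouse insulinoma line that makes and secretes insulin, by paired-end RNA sequencing. The genes described are the kinesins, the light chains and accessory subunits of kinesin, and the subunits of cytoplasmic dynein and of its partner complex dynactin. They were chosen by symbol alone, as every symbol in the count files that begins with Kif or Kifc and a digit, with Kifap3, with Klc, Dync or Dctn and a digit, or with Dynl. This gave 71 of 24421 symbols, of which 61 had enough reads to be tested. Both groups were labelled wild type and were given 0.3 mM palmitate, a saturated fatty acid, for 24 h. The control group carried an adenovirus with a control hairpin (sh-ctrl, n = 6) for 48 h, and the other group an adenovirus with a hairpin against Il22ra1, a receptor subunit for interleukin 22 (sh-Il22ra1, n = 6), for the same time. There were no cells without virus or without palmitate, and all libraries came from this cell line. The labels do not say whether the 6 libraries of a group came from separate cultures, so each p-value measures the spread between these libraries, which may be technical.

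Kinesins are motors that use ATP to walk along microtubules, most of them towards the plus end, while cytoplasmic dynein walks towards the minus end with dynactin as its processivity and cargo-binding partner. In insulin-secreting cells microtubules carry insulin granules between the Golgi region and the cell periphery, and kinesin-1 is the motor most often linked to that movement. Another set of kinesins, the mitotic kinesins, builds and moves the spindle and acts in cytokinesis, and is made mainly in dividing cells. The members were therefore described by role: transport kinesins, mitotic kinesins, other kinesins, dynein and dynactin.

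The CCAAT box, which the factor NF-Y binds and which recurs in genes expressed late in the cell cycle, was searched for in the promoters of the members, and the 250 bases before the start of 5 members are shown as an illustration: 4 mitotic kinesins, 3 of which fell and 1 of which did not pass the test, and Dynll1, the dynein light chain gene with the largest rise. The sequences are from RefSeq on GRCm38.p6, 5′ to 3′ on the gene's own strand. Capitals mark CCAAT, or ATTGG for a CCAAT on the opposite strand, and TTTGAA, or TTCAAA for its opposite strand, one form of the cell-cycle element called CHR. Kif11 was read from chr19:37376132-37376381 (plus strand), Kif18b from chr11:102925125-102925374 (minus), Kif23 from chr9:61946800-61947049 (minus), Kif22 from chr7:127042421-127042670 (minus) and Dynll1 from chr5:115300991-115301240 (minus).
Kif11: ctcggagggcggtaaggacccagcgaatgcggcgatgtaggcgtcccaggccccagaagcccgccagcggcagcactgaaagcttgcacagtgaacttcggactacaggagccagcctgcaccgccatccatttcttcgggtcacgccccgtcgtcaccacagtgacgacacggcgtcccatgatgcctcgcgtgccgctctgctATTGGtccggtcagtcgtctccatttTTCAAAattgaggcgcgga
Kif18b: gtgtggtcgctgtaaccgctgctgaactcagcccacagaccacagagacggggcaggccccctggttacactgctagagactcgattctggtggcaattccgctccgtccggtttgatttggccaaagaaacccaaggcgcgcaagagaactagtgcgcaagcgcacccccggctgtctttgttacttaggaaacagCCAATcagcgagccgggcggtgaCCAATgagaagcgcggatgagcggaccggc
Kif23: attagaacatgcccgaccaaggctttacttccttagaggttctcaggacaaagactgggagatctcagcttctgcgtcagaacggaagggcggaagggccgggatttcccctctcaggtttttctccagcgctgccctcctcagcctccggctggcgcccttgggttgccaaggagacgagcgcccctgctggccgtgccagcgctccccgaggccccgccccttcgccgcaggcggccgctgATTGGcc
Kif22: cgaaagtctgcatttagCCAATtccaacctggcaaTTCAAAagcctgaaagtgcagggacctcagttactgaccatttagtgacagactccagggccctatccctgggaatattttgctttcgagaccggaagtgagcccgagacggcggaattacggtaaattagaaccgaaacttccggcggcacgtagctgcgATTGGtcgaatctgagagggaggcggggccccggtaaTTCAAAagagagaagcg
Dynll1: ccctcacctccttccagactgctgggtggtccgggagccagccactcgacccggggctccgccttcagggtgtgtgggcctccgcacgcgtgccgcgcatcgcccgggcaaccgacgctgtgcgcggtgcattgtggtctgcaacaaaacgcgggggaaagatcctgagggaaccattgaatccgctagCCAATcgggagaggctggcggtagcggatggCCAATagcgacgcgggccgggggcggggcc

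Of the 71 members, 53 matched the RefSeq promoter table, where a gene counted as holding a motif if any of its listed windows did on either strand. CCAAT was present in 9 of the 13 mitotic kinesins in the table (69.2%), in 17 of the 40 other members, and in 37.5% of all 27025 genes of the table. The 9 include the near-copies Kifc1 and Kifc5b, and Kif2b, which had no reads in any library. TTTGAA was present in 5 of 13 mitotic kinesins (38.5%) and in 18.3% of all genes. Among these 5 are Kif14, also counted for CCAAT, and Kif2c. Their windows lie inside the gene by its GENCODE position, as do windows of some other members, so they may lie outside the promoter. The sequence TTTGGCGC, a form of the E2F site, was present in Kif15 and Kif18a, against 0.485% of all genes, and TTCGAA and TTTCGCGC were in none of the 13. These are matches of letters in one window and say nothing of which factor binds. The sequences printed were picked with the genes' changes known and bear on no link between motif and change.

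The knockdown label was checked first. Il22ra1 itself had 7 to 20 reads in each sh-ctrl library and 1 to 4 in each sh-Il22ra1 library, 0.831 ± 0.256 against 0.164 ± 0.0872 CPM (reads per 1000000 reads in genes, scaled by TMM library sizes; mean ± SD, n = 6 each; two-sided exact permutation test, p = 0.00216, the smallest that 924 splits allow). Reads in genes totalled 13108494 to 15887448 per library. The sh-ctrl libraries spread along the second principal component, which held 13.74% of the variance, with sh-ctrl 1 and 4 at one end (18.2 and 31.9) and sh-ctrl 2 and 6 at the other (-17.7 and -16.2), while the sh-Il22ra1 libraries ran from -9.30 to 6.27. Values without either pair are given where they matter. Unaligned reads made up between 12.8% and 17.3% of each control file and between 8.71% and 11.8% of each knockdown file. The 10 beta cell markers summed to 70724 to 107634 CPM in sh-ctrl and 63386 to 72510 CPM in sh-Il22ra1; 6 of them fell, among them Mafa (-1.29), Slc2a2 (-0.93) and Iapp (-0.63), and 2 rose. The 6 acinar markers summed to at most 1.03 CPM, with Prss1 and Amy2a5 at 0. Summed fibroblast markers (5 genes) were 3.09 to 6.34 CPM in sh-ctrl and 1.04 to 2.12 CPM in sh-Il22ra1, leukocyte markers (5 genes) 18.5 to 27.2 and 5.83 to 9.57 CPM, other islet hormones (4 genes) 243.1 to 294.3 and 145.3 to 158.2 CPM, and endothelial markers (4 genes) 1.54 to 4.84 and 3.12 to 4.57 CPM. The leukocyte sum is nearly all Cd68 (means 22.0 and 6.17 CPM), with Ptprc, Adgre1 and Cd3e near 0 and Lyz2 not past the test, and the hormone sum is nearly all Gcg (means 266.7 and 146.5 CPM). The fibroblast, leukocyte and hormone sums did not overlap between groups and the beta cell and endothelial sums did; their part in the values below was not tested. In bulk RNA, fewer cells of a kind and less RNA per cell cannot be told apart.

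Most called dynein and dynactin genes were higher in sh-Il22ra1 and most called kinesins were lower, a difference between the 2 classes that was not itself tested. The kinesin part did not hold with offsets for transcript length and GC content, where 14 kinesins rose and 13 fell. Of 18 tested dynein and dynactin genes 8 rose and 1 fell in sh-Il22ra1, and of 43 tested genes of the kinesin symbols, among them the kinesin-binding protein Kif1bp, 6 rose and 17 fell. Among members above 10 CPM, the largest log2 rises were those of the dynein light chains Dynll1 and Dynll2, and the largest falls those of the spindle motor Kif11, of Kif12 and of Kif21b. Over the whole set, 14 members rose and 18 fell, and 29 did not pass the test (edgeR's quasi-likelihood test, Benjamini-Hochberg adjusted p under 0.05 over 13102 genes). The 52.5% of tested members that were called is near the 51.9% of all tested genes that were called, of which 25.4% rose and 26.5% fell, so the motors as a set changed no more often than other genes. The median log2 fold change was 0.16 for dynein and dynactin, -0.20 for kinesins and -0.0043 for all tested genes.

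**Figure D1:**
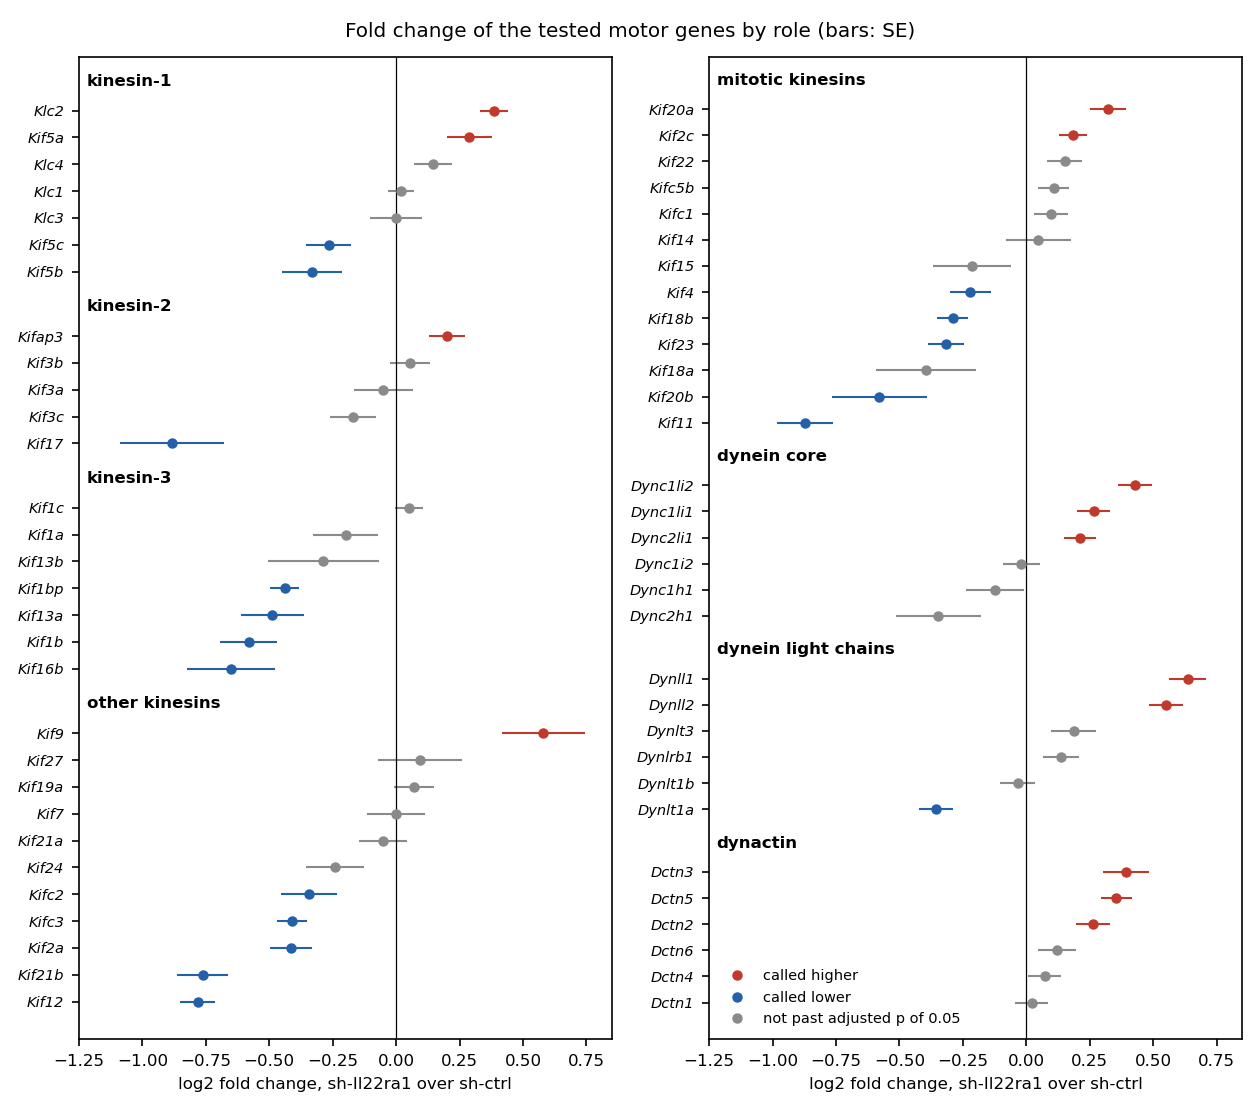
Log2 fold change of each tested member, sh-Il22ra1 against sh-ctrl, grouped by role, with the standard error as bars and genes past the adjusted p of 0.05 marked by colour. In this fit, without offsets for length and GC content, the called dynein and dynactin genes lie right of 0 except Dynlt1a, while most called kinesins lie left of it.

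The sets of libraries did not overlap in CPM for 9 of the members higher in sh-Il22ra1 and for 12 of those lower, against 13.5% and 14.7% of all tested genes. With offsets for transcript length and GC content, 24 members rose and 15 fell, against 33.6% and 25.0% of all genes, and without sh-ctrl 1 and 4 together 19 rose and 24 fell, against 28.5% and 31.3%. Without sh-ctrl 2 and 6 together 13 rose and 17 fell, against 23.0% and 24.6%. Kinesins then numbered 14 higher and 13 lower with offsets and 8 and 21 without sh-ctrl 1 and 4. Dynein and dynactin genes numbered 10 higher and 2 lower with offsets and 11 and 3 without sh-ctrl 1 and 4. With the offsets the kinesins' median log2 fold change was 0.00.

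Kinesin-1 carries granules, mitochondria and other cargo, with the Kif5 genes encoding its motor chains and the Klc genes its cargo-binding light chains. Of 7 tested genes 2 rose and 2 fell, and the median log2 fold change was 0.02; with length and GC offsets 3 rose and 0 fell. Klc2 (chr19, 5107746 to 5118560 on GRCm38, minus strand) ran from 60.5 through a median of 62.9 to 70.2 CPM in sh-ctrl and from 80.2 through 83.4 to 89.6 CPM in sh-Il22ra1. The groups did not overlap, and the rise was 0.39 on the log2 scale (SE 0.0562, edgeR adjusted p = 1.55e-05). About 10.6% of Klc2's exon bases overlap the antisense gene AC124502.1, and strand use in counting is not given in the sources used here. Klc1, the most abundant of the light chains per kilobase of exon, was at 38.6 CPM per kilobase in sh-ctrl and 39.1 in sh-Il22ra1 and did not pass the test (log2 fold change 0.02).

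Among the kinesin-1 motor chains the calls were small and less firm. Kif5a ran from 22.1 through a median of 28.5 to 34.4 CPM in sh-ctrl and from 32.4 through 34.6 to 36.9 CPM in sh-Il22ra1, with overlap, a log2 fold change of 0.29 (SE 0.0879, edgeR adjusted p = 0.0101). Without sh-ctrl 1 and 4 the call was lost, at 0.16 (edgeR adjusted p = 0.0537), the 1 alternative of 22 that lost it. Kif5a was at 0.51 with length and GC offsets and at 0.41 without sh-ctrl 2 and 6 (edgeR adjusted p = 3.67e-07 and 0.000465). Kif5b and Kif5c, the ubiquitous and a neuronal-type chain, were lower by 0.33 and 0.27 on the log2 scale (SE 0.118 and 0.0875), with overlapping groups. Neither fall passed with length and GC offsets, where the log2 fold changes were -0.16 and -0.10, the fall of Kif5c was lost without sh-ctrl 2 and 6 (-0.16), and that of Kif5b was also lost without sh-ctrl 1, sh-ctrl 5, sh-Il22ra1 2 or sh-Il22ra1 6. As a share of the 3 motor chains per kilobase, Kif5a held 16.6% to 24.7% in sh-ctrl and 25.8% to 32.0% in sh-Il22ra1, without overlap.

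Kinesin-2 serves ciliary transport as the Kif3a-Kif3b motor with the adaptor Kifap3, and Kif17 is its homodimeric member. Of 5 tested genes 1 rose and 1 fell. Kif17, a low-level gene, was at 1.79, 1.96 and 2.75 CPM (lowest, median and highest) in sh-ctrl and at 0.65, 1.10 and 1.57 CPM in sh-Il22ra1, with no overlap, and fell by 0.88 on the log2 scale (SE 0.206). Kifap3 rose by 0.20 (SE 0.0726, edgeR adjusted p = 0.0269), a call lost without sh-ctrl 4, sh-ctrl 5, sh-Il22ra1 1 or sh-Il22ra1 3. Kif3b had a log2 fold change of 0.05, which did not pass and became -0.06 without sh-ctrl 1 and 4. With length and GC offsets Kif3b was called higher at 0.19 (edgeR adjusted p = 0.00661).

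Kinesin-3 motors carry vesicles and organelles, and Kif1a, the dense-core vesicle motor, is the member closest to granule transport. Of 6 tested motors none rose and 3 fell, with a median log2 fold change of -0.39. With length and GC offsets 1 rose and 3 fell, with a median of -0.13. The riser was Kif1c, at 0.27 with offsets (edgeR adjusted p = 0.00445) and at 0.05 without them (edgeR adjusted p = 0.454). Kif1b (chr4, 149176319 to 149307693, minus strand), which carries mitochondria and synaptic vesicle precursors, was at 59.0, 73.6 and 96.5 CPM (lowest, median and highest) in sh-ctrl and at 43.9, 51.3 and 57.7 CPM in sh-Il22ra1. The groups did not overlap, and Kif1b fell by 0.58 on the log2 scale (SE 0.114, edgeR adjusted p = 0.000333). Kif1bp, which the symbol rule takes in but which is no motor, binds kinesin motor domains and blocks their attachment to microtubules, and it fell by 0.44 (SE 0.0583), with 70.7 to 79.8 CPM in sh-ctrl and 51.6 to 58.0 CPM in sh-Il22ra1, and 10.1% of its exon bases overlap the antisense gene 4933428P19Rik. The endosome motor Kif16b and Kif13a, which carries mannose-6-phosphate receptors, fell by 0.65 and 0.49 on the log2 scale (SE 0.175 and 0.124).

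Kif1a and Kif13b depended on which libraries were in the fit. Kif1a was at 138.3, 201.8 and 265.0 CPM (lowest, median and highest) in sh-ctrl and at 156.4, 176.0 and 183.0 CPM in sh-Il22ra1, and its log2 fold change of -0.20 (SE 0.128, edgeR adjusted p = 0.203) did not pass. Its lowest sh-ctrl values, 138.3 and 141.4 CPM, were those of sh-ctrl 1 and 4, and Kif13b, a motor that binds phosphoinositide adaptors, was also lowest there, at 14.5 and 15.1 CPM. Without these 2 libraries Kif1a was lower by 0.41 (SE 0.0685, edgeR adjusted p = 7.61e-06) and Kif13b by 0.61 (edgeR adjusted p = 4.77e-05), and 5 of the 6 kinesin-3 motors then passed as lower. Their highest values were those of sh-ctrl 2 and 6, 265 and 246.1 CPM for Kif1a and 39.7 and 47.1 CPM for Kif13b, and without those 2 libraries neither passed, at 0.02 for Kif1a and 0.13 for Kif13b (edgeR adjusted p = 0.873 and 0.523). With length and GC offsets Kif1a went the other way, at 0.11 (edgeR adjusted p = 0.171), and Kif13b was at 0.00. No direction is given for either gene.

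Mitotic kinesins split within themselves, with 5 of 13 lower and 2 higher and a median log2 fold change of -0.21; 5 were higher without sh-ctrl 1 and 4 (4 without sh-ctrl 4 alone) and 6 with the offsets. Kif11 (chr19, 37376403 to 37421859, plus strand), which slides spindle microtubules apart to make the spindle bipolar, was at 29.0, 35.9 and 45.3 CPM (lowest, median and highest) in sh-ctrl and at 16.9, 19.3 and 26.1 CPM in sh-Il22ra1. No sh-Il22ra1 library reached the lowest sh-ctrl library, and the fall was 0.87 on the log2 scale (SE 0.110, edgeR adjusted p = 3.11e-06). It passed in all 22 alternatives, being 0.87 lower without sh-ctrl 1 and 4 and 0.76 lower with the offsets. Kif18b, a plus-end motor that shortens astral microtubules, was at 83.8, 93.6 and 103.7 CPM against 71.5, 76.1 and 79.5 CPM, without overlap, and fell by 0.29. Kif23, a motor subunit of centralspindlin in cytokinesis, and Kif20b fell by 0.32 and 0.58 (SE 0.0725 and 0.186).

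Other mitotic members were higher or did not pass. Kif2c, which depolymerises microtubules at centromeres, rose by 0.18 (SE 0.0546), and Kif20a, a cytokinesis motor, rose by 0.32 (SE 0.0711), but 29.3% of the Kif20a exon bases overlap Cdc23. Kif22, the chromokinesin Kid, was 0.15 higher without passing the test (edgeR adjusted p = 0.0714). It passed as higher in 5 of the 22 alternatives, among them without sh-ctrl 1 and 4, at 0.22 (edgeR adjusted p = 0.00176). The fall of the chromokinesin Kif4 by 0.22 (SE 0.0808, edgeR adjusted p = 0.0289), whose count is uncertain because 15.1% of its exon bases overlap Pdzd11, was lost with the offsets, without sh-ctrl 1 and 4 together, and without sh-ctrl 1, sh-ctrl 5 or sh-Il22ra1 4, 5 or 6 alone. Kifc1, at 60.7 CPM per kilobase in sh-ctrl the most abundant mitotic member, had a log2 fold change of 0.10 (edgeR adjusted p = 0.23). It passed as higher in 3 of the 22 alternatives. As 34.6% of its 75-base exon windows also occur in Kifc5b, the count of Kifc1 is uncertain. The summed level of mitotic kinesins was 677 to 742.2 CPM in sh-ctrl and 688.5 to 737 CPM in sh-Il22ra1, and these ranges overlap. Of 28 mitotic genes outside the symbol rule, 5 rose and 11 fell, with a median of -0.09. Among these Mki67 fell by 0.84, Incenp fell by 0.74 and Birc5 rose by 0.45.

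**Figure D2:**
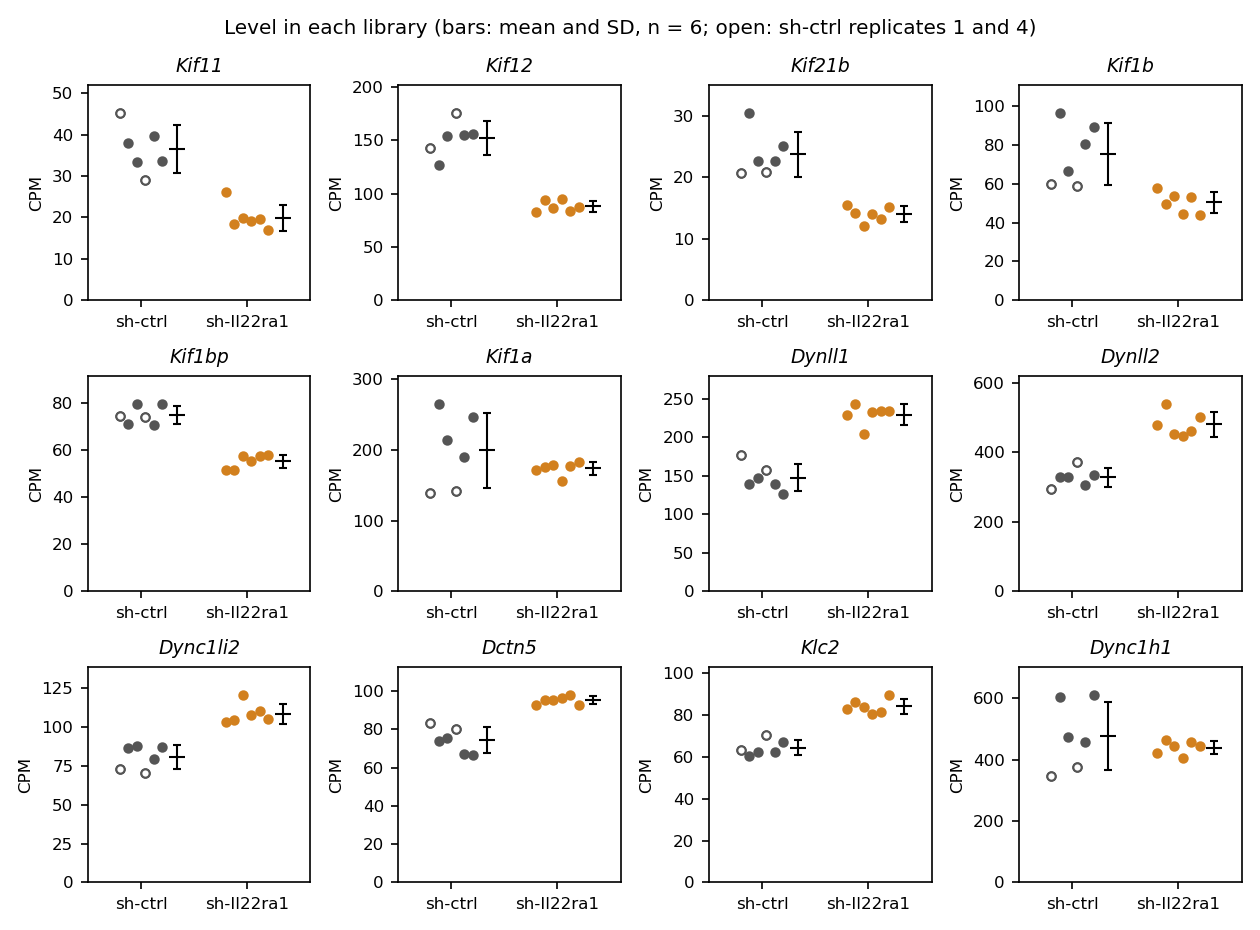
CPM of 12 members in each library, 1 point per library with the group mean and SD beside it (n = 6), each vertical axis starting at 0; open points are sh-ctrl 1 and 4. Kif11 and Kif12 have no knockdown point as high as the lowest control point, Dynll1 and Dynll2 none as low as the highest control point, and the open points of Kif1a and Dync1h1 lie below the other control points.

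Kinesins with other roles had 1 rise and 5 falls among 11 tested genes, and 5 did not pass. Their summed level was 379.3 to 415.7 CPM in sh-ctrl and 279.6 to 298 CPM in sh-Il22ra1, without overlap. The largest parts of that difference were Kif12 (means 152 and 88.4 CPM) and Kifc3 (means 92.6 and 69.7 CPM), so the sum does not stand for the whole group. Kif12 (chr4, 63165630 to 63172131, minus strand), which has been tied to antioxidant responses of beta cells to nutrient excess, was at 127.4, 154.5 and 176.0 CPM (lowest, median and highest) in sh-ctrl and at 82.5, 87.1 and 95.2 CPM in sh-Il22ra1. It fell by 0.78 on the log2 scale (SE 0.0701, edgeR adjusted p = 4.49e-08), and per kilobase it went from 44.7 to 26.0 CPM. Kif21b (chr1, 136131389 to 136177998, plus strand), a motor that also limits microtubule growth, was at 20.8, 22.7 and 30.5 CPM against 12.1, 14.1 and 15.5 CPM, and fell by 0.76 (SE 0.0998). No library of one group overlapped the other group for either gene.

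Kif2a, a microtubule-depolymerising kinesin, and the minus-end motor Kifc3 both fell by 0.41, but 19.2% of the exon bases of Kif2a overlap Dimt1, so reads of that pair may not be told apart, and the count of Kifc3 is uncertain for shared exon bases too. Kifc2 fell by 0.34, a call that was lost with length and GC offsets. Kif9, a kinesin of motile cilia, was the riser, at 1.80, 2.70 and 3.66 CPM (lowest, median and highest) in sh-ctrl and at 3.73, 3.95 and 4.42 CPM in sh-Il22ra1, without overlap (log2 fold change 0.58, SE 0.163).

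Cytoplasmic dynein heavy, intermediate and light intermediate chains had 3 rises and no falls among 6 tested genes, and 2 falls beside 3 rises without sh-ctrl 1 and 4. Dync1li2, a light intermediate chain that joins the motor to its cargo adaptors, was at 70.5, 82.9 and 88.2 CPM (lowest, median and highest) in sh-ctrl and at 103.6, 106.2 and 120.9 CPM in sh-Il22ra1. The groups did not overlap, and the rise was 0.43 on the log2 scale (SE 0.0668, edgeR adjusted p = 3.5e-05). Dync1li1, the other light intermediate chain, rose by 0.27 (SE 0.0656), and Dync2li1, of the ciliary dynein, by 0.21 (SE 0.0634), which was lost with offsets at 0.08 and without sh-ctrl 2 and 6 at 0.15. Per kilobase of exon, Dync1li1 was at 18.1 CPM and Dync1li2 at 13.4 CPM in sh-ctrl, both below the 30.6 CPM per kilobase of the heavy chain Dync1h1.

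Dync1h1 changed side with the processing. It was at 347.8, 465.4 and 612.5 CPM (lowest, median and highest) in sh-ctrl and at 404.4, 444.2 and 463.9 CPM in sh-Il22ra1, and the log2 fold change of -0.12 did not pass (SE 0.112, edgeR adjusted p = 0.373). Its lowest sh-ctrl values, 347.8 and 377.2 CPM, were those of sh-ctrl 1 and 4, and without them the gene was called lower at -0.30 (SE 0.0690, edgeR adjusted p = 0.000404). Its highest, 604 and 612.5 CPM, were those of sh-ctrl 2 and 6, and without them it was at 0.09 (edgeR adjusted p = 0.39). With length and GC offsets it was called higher at 0.20 (SE 0.0434, edgeR adjusted p = 0.000405). No direction is given for the heavy chain here.

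Of 6 tested dynein light chains 2 rose and 1 fell, with a median log2 fold change of 0.16, and 4 rose without sh-ctrl 1, alone or with sh-ctrl 4. Dynll1 (chr5, 115297110 to 115300999, minus strand) encodes a light chain shared by many complexes besides dynein. It was at 126.1, 143.1 and 177.6 CPM (lowest, median and highest) in sh-ctrl and at 204.5, 233.3 and 243.7 CPM in sh-Il22ra1, a rise of 0.64 on the log2 scale (SE 0.0730, edgeR adjusted p = 9.5e-07). Its paralog Dynll2 (chr11, 87979525 to 87987533, minus strand) was at 295.1, 330.2 and 373.6 CPM against 446.7, 471.2 and 540.5 CPM, a rise of 0.55 (SE 0.0656, edgeR adjusted p = 1.52e-06). Neither gene had an overlap between groups, and each kept its call in all 22 alternatives.

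The shares of the Dynll pair overlapped between groups: Dynll1 held 20.9% to 29.7% of the pair's level per kilobase in sh-ctrl and 24.1% to 26.8% in sh-Il22ra1. Dynlrb1, the most abundant light chain per kilobase at 210 CPM in sh-ctrl and 231 in sh-Il22ra1, did not pass the test (log2 fold change 0.14, edgeR adjusted p = 0.111). It passed as higher in 3 of the 22 alternatives, those without sh-ctrl 1, sh-ctrl 4 or both. Dynlt1a fell by 0.35 (SE 0.0672), but 65.7% of its 75-base exon windows also occur in another gene, so its count is uncertain. The summed level of light chains was 758.3 to 913.4 CPM in sh-ctrl and 1002 to 1161 CPM in sh-Il22ra1, without overlap. Dynll2 and Dynll1 were the largest parts of that difference.

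Dynactin had 3 rises and no falls among 6 tested subunits. Dctn5 (chr7, 122133041 to 122149044, plus strand), a subunit of the pointed-end complex, was at 66.5, 74.9 and 83.3 CPM (lowest, median and highest) in sh-ctrl and at 92.7, 95.6 and 98.2 CPM in sh-Il22ra1, without overlap, a rise of 0.35 (SE 0.0616, edgeR adjusted p = 0.000107). Dctn3 and Dctn2, which belong to the shoulder of the complex, rose by 0.39 and 0.26 (SE 0.0913 and 0.0676), with overlapping groups. Dctn1, the large subunit that binds microtubules and dynein, was at 323, 382.5 and 424.8 CPM in sh-ctrl and at 374.3, 391.1 and 400.4 CPM in sh-Il22ra1, with a log2 fold change of 0.02 (SE 0.0639). With offsets Dctn1 was called higher at 0.24 (edgeR adjusted p = 0.000461). Per kilobase, Dctn3 went from 157 to 206 CPM, Dctn2 from 57.5 to 69.0 CPM, Dctn5 from 28.1 to 35.9 CPM and Dctn1 from 58.9 to 59.8 CPM.

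**Figure D3:**
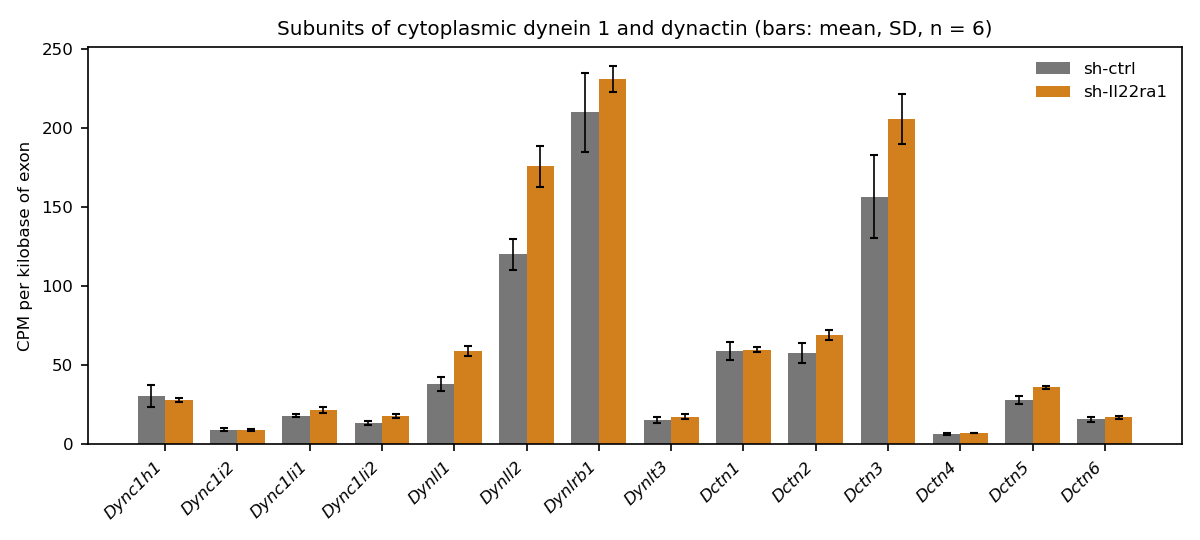
Bars give the mean CPM per kilobase of exon of 14 dynein and dynactin subunits in sh-ctrl (grey) and sh-Il22ra1 (orange) on a linear axis from 0, with SD as whiskers (n = 6 each). Dynlrb1, Dctn3 and Dynll2 have the highest bars, and Dctn4, at 6.78 in sh-ctrl, the lowest among dynactin subunits.

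Levels summed by role put these changes in scale. All members together took 4561 to 4920 CPM in sh-ctrl and 4906 to 5161 CPM in sh-Il22ra1, on average 0.475% and 0.498% of the TMM-scaled library size. Dynactin summed to 949.2 to 1150 CPM and 1127 to 1210 CPM, and kinesin-3 with Kif1bp to 405.1 to 591.3 CPM and 398.7 to 430.7 CPM, where the lowest 2 sh-ctrl sums, 405.1 and 410.2 CPM, were those of sh-ctrl 1 and 4.

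**Figure D4:**
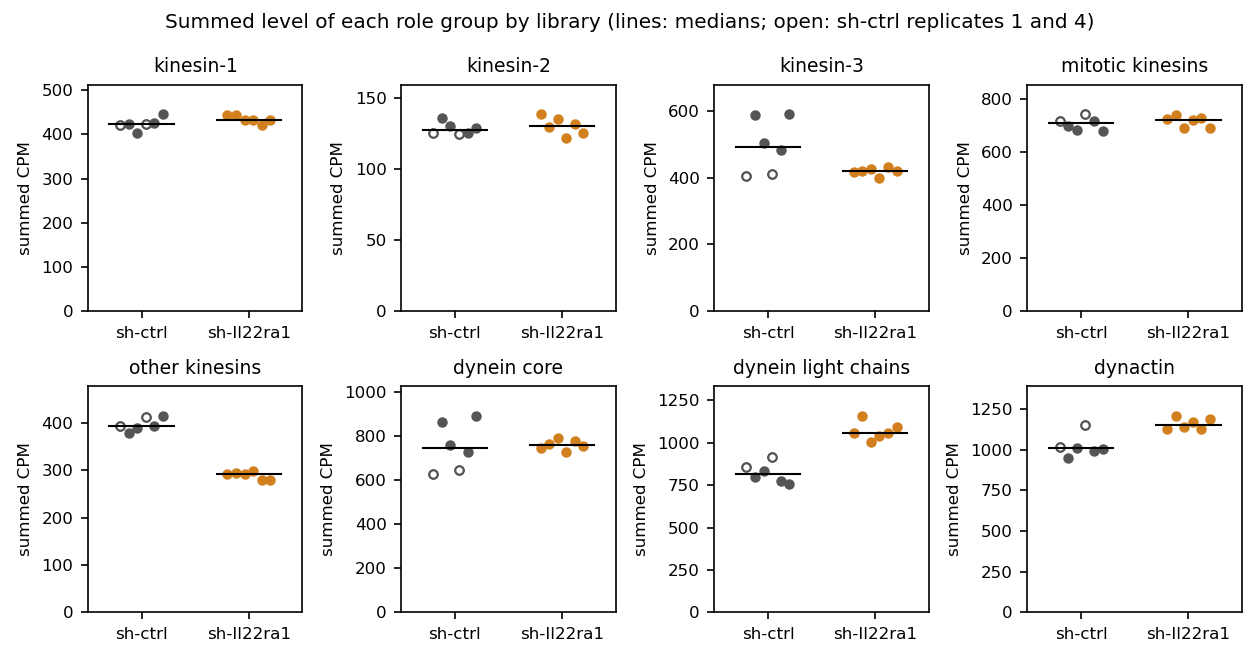
Summed CPM of the members of each role in each library, with group medians as lines and open points for sh-ctrl 1 and 4. Light chains and other kinesins do not overlap between groups, at 1002 to 1161 against 758.3 to 913.4 CPM and 279.6 to 298 against 379.3 to 415.7 CPM. The largest parts of these differences are Dynll2 and Dynll1 for light chains and Kif12 and Kifc3 for other kinesins.

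Exon length moved with the calls. Members called higher had a median of 4073 exon bases and those called lower 6675, and over all genes the same medians were 3733 and 5137. With offsets for length and GC content, 12 members not called before were called, 11 of them higher, and 5 called members were lost. Of the 32 called members, 25 kept their call in every alternative, 11 of them higher and 14 lower.

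**Figure D5:**
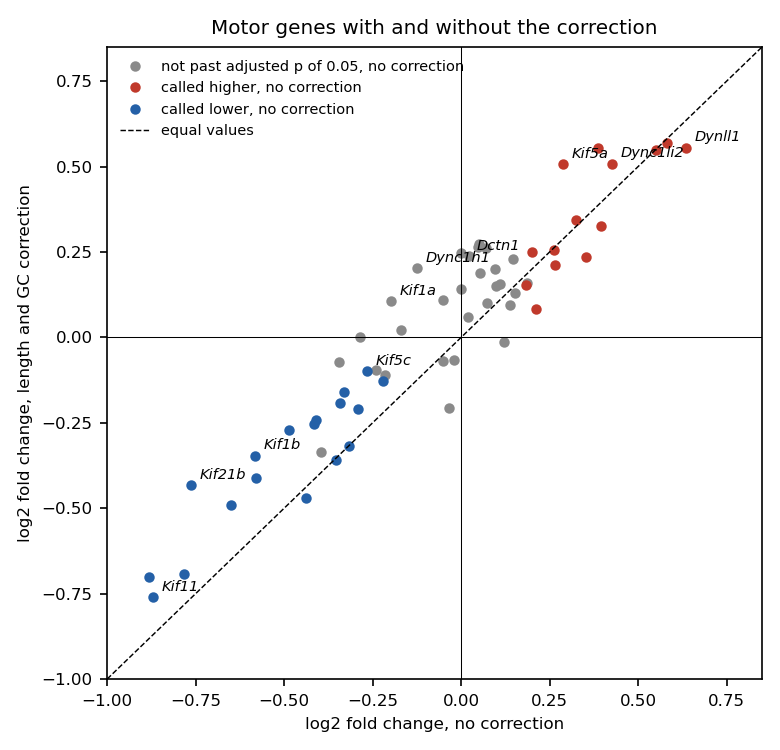
Log2 fold change of each tested member without (horizontal) and with (vertical) offsets for transcript length and GC content, coloured by the call without offsets, with a dashed line of equal values. Dync1h1 and Kif1a lie above the line and cross 0, from -0.12 to 0.20 and from -0.20 to 0.11, while Kif11 stays low and Dynll1 high.

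Genes that work with the motors were read from lists of adaptors, tracks and regulators. Of 22 tested dynein regulators and adaptors 6 rose and 3 fell, with a median of 0.05; the smallest p-values were those of Bicd2 (0.71), an adaptor that recruits dynein and dynactin, and of the capping subunits Capza1 (0.49) and Capzb (0.32). Of 23 kinesin adaptors 2 rose and 6 fell (median -0.05): Mapk8ip2, a scaffold that binds kinesin light chains, fell by 0.68, Hap1 fell by 0.43 and Arl8b, which recruits kinesin to lysosomes, rose by 0.45. With length and GC offsets 11 of the kinesin adaptors rose and 5 fell, and without sh-ctrl 1 and 4, 3 rose and 9 fell. Of 16 tubulins 1 rose and 11 fell (median -0.25), among them Tubb2b and Tubb3 (each -0.48) and Tubb5 (-0.40), at 1165 to 1438 CPM in sh-ctrl and 883.7 to 1086 CPM in sh-Il22ra1. Tuba1b and Tuba8, also lower, have 27.4% and 16.3% of their exon bases overlapping another gene, so their counts are uncertain. Windows shared between tubulins were not searched for. Of 28 microtubule-associated proteins and tubulin-modifying enzymes 2 rose and 15 fell (median -0.26): the microtubule stabiliser Mapt fell by 0.94, the tubulin tyrosine ligase Ttl fell by 0.71, and Clip2, a plus-end binding protein, fell by 0.68. Of 7 genes of actin-based granule transport none rose and 2 fell, Sytl5 by 1.04 and Sytl4, or granuphilin, by 0.18, and 5 fell without sh-ctrl 1 and 4. Over all tested genes 25.4% rose and 26.5% fell, and no list was tested as a set.

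In all, 10 members did not pass the low-count filter and were not tested. Kif4-ps, Dynlt1c and Kif2b had no reads in any library. Dync1i1 had 1 read over the sh-ctrl libraries and 2 over the sh-Il22ra1 libraries, Kif6 1 and 1, Dynlrb2 4 and 5, Dynlt1f 49 and 44, and Kif26a 43 and 34. Kif26b had 0 reads over the 6 sh-ctrl libraries and 7 over the 6 sh-Il22ra1 libraries, and Kif16bos, an antisense transcript, 16 and 43. None of these counts carries a test, and a count of 0 means not detected at this depth.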

How the data were processed

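Total RNA of 12 Min6 samples, 6 per group by their titles, was sequenced as paired ends, per the labels' protocols. Treatment labels of sh-Il22ra1 replicates 2 to 6 read sh-Il22ra2 to sh-Il22ra6 as written, which was taken as a numbered run of the same hairpin. The titles set the groups, GFP-1 to GFP-6 for sh-ctrl and shRNA-1 to shRNA-6 for sh-Il22ra1. The deposited files hold whole-number read counts per gene symbol; HISAT2 2.0.5, HTSeq and mm10 are named in the submitters' processing notes, while for the annotation and the strand setting the entry is: not given in the sources used here. A deposited CPM table of the same libraries was not used. Rows of unassigned reads were left out, among them the reads without an alignment given in the report.

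Tests used edgeR 4.0.16 under R 4.3.3 (filterByExpr with minimum count 10 and minimum total 15, TMM, quasi-likelihood test, Benjamini-Hochberg over 13102 genes, two-sided, threshold 0.05). The SE is the fold change divided by the square root of F. CPM uses TMM library sizes. Exon lengths, overlaps and positions came from GENCODE M21 on GRCm38; 23384 symbols matched by symbol, 651 by synonym and 386 not at all. A count was called uncertain where more than 10% of exon bases overlapped another gene or 75-base windows recurred in another gene. Tools also used were limma 3.58.1, DESeq2 1.42.0 and Python 3.11.15, and the fit was tested on simulated data.

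The members, lists and tests were chosen with earlier results of these data known. Named genes were Kif11, up to 4 called members per role with the smallest p, up to 2 per role with the highest level per kilobase, the 5 largest rises and falls among called members averaging 2 CPM or more, and up to 3 called genes per list; Kif20b, Kif4, Kif2c, Kif13b, Kifc2, Dctn1 and the promoter examples were chosen after their values were seen. Replicate numbers recur in both groups without pairing the samples, and the number was no term of the fit. Every pair of replicates differed by more than sampling noise (lowest chi-square per degree of freedom 3.82). Alternatives were RLE and upper-quartile scaling, DESeq2, limma-voom, no filter, a mean of at least 1 CPM, a replicate block, each library left out, sh-ctrl 1 and 4 left out, sh-ctrl 2 and 6 left out (added after seeing the data), and length and GC offsets (splines of 4 degrees of freedom).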

Additional observations from a re-analysis of the deposited data

Results flagged for a closer look

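In 42 members, 84 groups of 6 libraries were checked for a library far from the rest, by the gap to the nearest other library as a share of the group's range (Dixon's 95% critical value). Chance marks about 1 group in 20 this way, and 5 were marked. Kif11 was 26.07 CPM in sh-Il22ra1 replicate 1, against 16.93 to 19.76 CPM in the other 5. Kif17 was 2.748 CPM in sh-ctrl 4, against 1.792 to 2.085 CPM. Kifc1 was 251.4 CPM in sh-ctrl 4, against 191.4 to 207.7 CPM. Kifc3 was 76.88 CPM in sh-Il22ra1 replicate 4, against 66.14 to 69.52 CPM. Kif2a was 44.97 CPM in sh-ctrl 1, against 34.81 to 38.26 CPM.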

How the results depend on the processing

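Under the alternatives the number of members called lower stayed within 1.5 times that of the fit reported, and the number called higher did so except with length and GC offsets, where it was 24 against 14. Leaving out each library in turn gave 13 to 17 members higher and 16 to 22 lower, and 2881 to 3521 of all genes higher and 3239 to 3970 lower. The fit with the replicate number as a block gave 16 members higher and 19 lower, and 3463 and 3566 of all genes; the numbers did not pair samples, since same-numbered libraries correlated at -0.03 to 0.23 and 1 number in 6 correlated best with its own. Without the members with shared reads, an alternative chosen after seeing the data, 12 rose and 13 fell. Over all tested members 15 changed direction in some alternative, 0 of them called in the fit reported, and 5 of these are described in the report; the cause was not tested. The log2 fold change of Kif3b was -0.016 without sh-ctrl replicate 4, in a leave-one-out range up to 0.087, and -0.055 without sh-ctrl 1 and 4. The log2 fold change of Dctn1 was -0.024 without sh-ctrl replicate 1, in a range up to 0.051, and -0.012 without sh-ctrl 1 and 4. With offsets Kif3b was at 0.19, Dctn1 at 0.24, Kif1a at 0.11, Dync1h1 at 0.20 and Kif13b at 0.0027. Without sh-ctrl 2 and 6 together, also chosen after seeing the data, Kif1a was at 0.021, Dync1h1 at 0.085 and Kif13b at 0.13. Genes with few reads, such as Kif17 and Kif9, are limited by depth.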
